A study of Homo sapiens with 4 samples.

Results

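Replication-dependent histone genes encode the linker histone H1 and the core histones H2A, H2B, H3 and H4 that package newly made DNA. They were found here by symbol, as the genes named H1-1 to H1-6 and those named with the stems H2AC, H2BC, H3C or H4C followed by a number, which are the genes formerly called HIST1H to HIST4H. The rule gave 69 genes of the 58812 listed: 6 of H1, 17 of H2A, 18 of H2B, 13 of H3 and 15 of H4. The cells were A549, an established human lung carcinoma epithelial line, labelled wild type. They were transfected with 1 µg of plasmid and collected at 24 hr. One group received pCMV6-Entry, the empty expression vector (2 libraries), and the other received SAMD9-Myc-DDK, a plasmid for tagged SAMD9, an interferon-inducible antiviral protein (2 libraries). Both groups were transfected, and no untransfected cells were analysed here. The labels do not say that replicates were separate cultures, so a p-value reflects the spread of these libraries only, which may be technical.

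Most of these genes lack introns and sit in clusters, and their mRNAs end in a conserved stem-loop in place of a poly(A) tail. The stem-loop is bound by SLBP, which guides processing, export and translation of the mRNA, and the transcripts accumulate in S phase and are degraded when DNA synthesis stops. The RNA here was total RNA depleted of ribosomal RNA, so a poly(A) tail was not needed for a transcript to be counted. In a bulk sample, fewer cells in S phase and less histone RNA per cell cannot be told apart.

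Stem-loops are shown for 5 members to make this shared end visible, with the bases of the loop in capitals. They were read from GENCODE release 29 transcripts, on the strand of the gene and in GRCh38 coordinates, by searching downstream of the stop codon for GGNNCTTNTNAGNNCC, where N is any base. Gene models that end at or near the stop codon could not be searched. H2BC11, whose model runs 569 bases past the stop codon, was searched and had no match.
H2AC6 (chr6:26124669-26124684): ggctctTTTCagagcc
H2AC11 (chr6:27133515-27133530): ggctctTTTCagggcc
H2BC5 (chr6:26158587-26158602): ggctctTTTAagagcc
H4C2 (chr6:26026901-26026916): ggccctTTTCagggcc
H4C14 (chr1:149833032-149833047): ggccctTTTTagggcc
The motif was found in 31 members, in 6 different forms. In 30 of them the 6 bases on either side of the 4-base loop were exact reverse complements, the exception being H2AC11. All 8 H4 members with a match had the stem shown for H4C2, and it was found in no other class.

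The promoters carry elements that differ by class, so 8 windows of 150 bases upstream of the RefSeq start are shown, from members whose values are described below. RefSeq windows of GRCh38.p14 (250 bases before to 50 after the start) were matched by symbol for 64 of the 69 members, all but H2AC12, H3C11, H3C12, H4C1 and H4C3. Motif searches covered both strands. Capitals mark TATAAA (the core promoter box), the letters CCAAT (bound by NF-Y), ATTTGCAT (the octamer bound by OCT1), AAACACAA (the H1 box) or GGTCCG (part of the H4 element bound by HINFP), where found on either strand. Motifs were searched separately and could overlap.
H1-4 (chr6:26156179-26156328, plus strand): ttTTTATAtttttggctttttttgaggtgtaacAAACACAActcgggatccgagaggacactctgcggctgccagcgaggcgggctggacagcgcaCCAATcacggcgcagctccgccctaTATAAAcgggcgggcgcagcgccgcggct
H2AC4 (chr6:26033619-26033768, minus strand): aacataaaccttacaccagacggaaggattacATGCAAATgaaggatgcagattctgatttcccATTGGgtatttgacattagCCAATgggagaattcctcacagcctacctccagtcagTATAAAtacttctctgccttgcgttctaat
H2BC3 (chr6:26043714-26043863, minus strand): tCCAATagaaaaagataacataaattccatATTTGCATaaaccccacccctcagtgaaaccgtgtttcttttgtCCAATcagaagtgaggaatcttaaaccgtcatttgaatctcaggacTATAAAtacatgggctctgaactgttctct
H2BC21 (chr1:149886683-149886832, minus strand): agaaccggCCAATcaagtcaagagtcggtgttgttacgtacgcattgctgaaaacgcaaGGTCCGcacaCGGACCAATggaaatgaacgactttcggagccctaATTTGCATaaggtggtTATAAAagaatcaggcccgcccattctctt
H3C2 (chr6:26032100-26032249, minus strand): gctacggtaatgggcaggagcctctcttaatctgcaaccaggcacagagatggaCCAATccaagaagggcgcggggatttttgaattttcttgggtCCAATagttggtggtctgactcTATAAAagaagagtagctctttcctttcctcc
H4C2 (chr6:26027284-26027433, minus strand): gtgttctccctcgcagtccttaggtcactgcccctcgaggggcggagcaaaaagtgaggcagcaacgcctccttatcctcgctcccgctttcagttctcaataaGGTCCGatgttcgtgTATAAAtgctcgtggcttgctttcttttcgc
H4C13 (chr6:27873535-27873684, minus strand): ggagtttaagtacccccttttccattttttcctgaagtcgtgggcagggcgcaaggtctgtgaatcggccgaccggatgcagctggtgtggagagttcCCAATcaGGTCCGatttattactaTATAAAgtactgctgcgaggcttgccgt
H4C14 (chr1:149832507-149832656, plus strand): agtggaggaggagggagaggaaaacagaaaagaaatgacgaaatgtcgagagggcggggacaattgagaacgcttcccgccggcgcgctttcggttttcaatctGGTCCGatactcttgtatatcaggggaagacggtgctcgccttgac
Over the full windows, CCAAT was present in all 6 H1, all 16 H2A, all 18 H2B and all 11 H3 windows but in 3 of 13 H4 windows, against 34.6% of all 35097 RefSeq promoters. GGTCCG was present in 12 of 13 H4 windows and in 1 window each of H2A, H2B and H3, against 11.3% of all promoters. The octamer was found in 11 H2A windows, 14 H2B windows and 1 H3 window, against 1.77% of all promoters. The H3 window was that of H3C4, which spans the same interval as the H2AC7 window. Some H2A and H2B windows overlap, so the same octamer can be counted in both classes, as with H2AC11 and H2BC11. The H1 box was found in 4 of 6 H1 windows and no other member's, against 1.55%. TATAAA was present in 42 of the 64 windows, against 11.5%, and in overlapping windows the same match can again be counted for both genes.

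SAMD9 counts were 444 and 400 with the empty plasmid and rose to 220123 and 184350 with the SAMD9 plasmid, as the groups are labelled. Library totals ran from 29301854 to 39670083 counts. Levels below are CPM (counts scaled to a common library size) after TMM normalisation, and changes are log2 fold changes of SAMD9 against empty vector from edgeR's quasi-likelihood test, with the standard error (SE). Calls required an adjusted p (Benjamini-Hochberg, over the 19814 tested genes) below 0.05. Of the epithelial markers, KRT7, KRT8 and KRT18 were abundant, EPCAM was between 5.55 and 6.90 CPM and KRT19 was at most 0.320 CPM. Summed leukocyte markers reached at most 0.175 CPM and endothelial markers at most 0.594 CPM. Of the 3 fibroblast markers, DCN was at 0 counts in all libraries, while COL1A1 went from 1.44 and 2.09 to 5.20 and 5.59 CPM, and the summed list from 1.63 and 2.09 to 5.36 and 5.69 CPM. The part of this in the histone values was not tested.

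Histone mRNAs of all 5 classes were lower with SAMD9. Of the 69 members, 61 had enough counts to be tested, and 39 of these were called lower and 1 higher. Over all genes tested, 12.2% were called lower and 15.3% higher. The median member had a log2 fold change of -0.72, against -0.01 over all genes. Both SAMD9 libraries lay below both empty vector libraries for 48 of the 61 members, against 30.9% of all genes tested. The 8 untested members, H1-1, H1-5, H2AC1, H2AC15, H2AC17, H2BC1, H4C6 and H4C7, had between 0 and 9 counts in any library. All exonic bases of H2AC15 lie within listed exons of H2BC15 on the other strand, and 88.0% of those of H2AC17 within H3C12 on its own strand, and how shared reads were assigned is not given in the sources used here. H1-1, H2AC1 and H2BC1 are known for expression in lymphoid or germ cells, and H4C7 encodes a shorter protein than the other H4 genes.

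**Figure D1:**
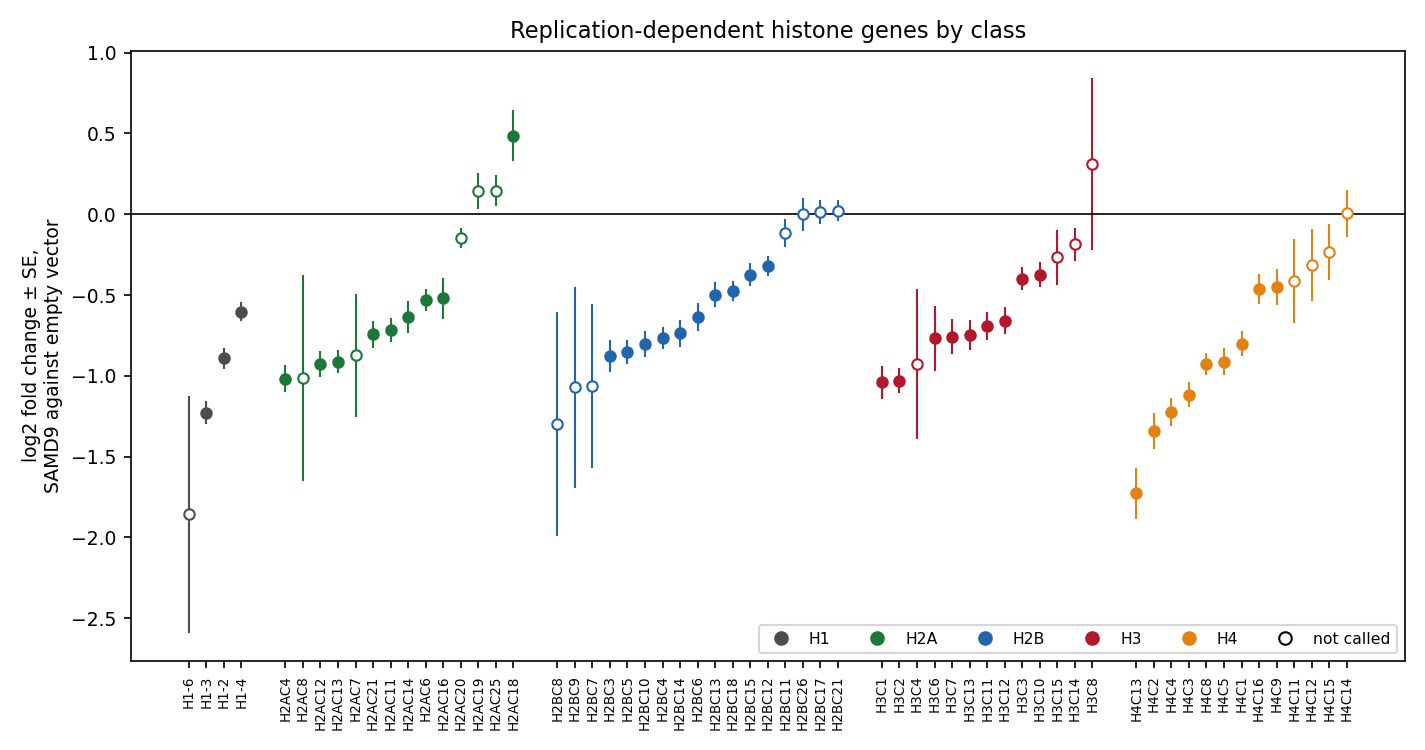
Log2 fold change (y axis, SAMD9 against empty vector, n = 2 libraries each) of the 61 tested members, sorted within each class along the x axis. Points are edgeR estimates, bars are 1 SE, and open points were not called. Most filled points lie between -0.3 and -1.4, and H4C13 is lowest among the called members at -1.73.

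Summed over their members, all 5 classes were lower with SAMD9, at between 52.0% and 75.0% of the empty vector mean. The sums of all 69 members were 5951 and 6553 CPM with empty vector and 4182 and 3844 CPM with SAMD9, or 64.2% of the empty vector mean. H4 sums were 790.5 and 858.8 CPM with empty vector and 456.9 and 400.1 CPM with SAMD9, a mean of 52.0% of empty vector. H1 sums went from 1137 and 1178 to 683.2 and 611.2 CPM, or 55.9%. These were the lowest shares among the classes in these libraries. H3 sums went from 1140 and 1317 to 799.2 and 688.8 CPM, or 60.6%. H2A sums went from 1089 and 1191 to 806.1 and 726.9 CPM, or 67.2%, and H2B sums from 1794 and 2009 to 1437 and 1417 CPM, or 75.0%. In each class the groups did not overlap. The difference between classes was not tested, and single genes weighed unequally on the sums. The gene with the most empty vector reads held 38.6% of the sum in H1 (H1-4) and 36.6% in H3 (H3C2). In H2A, H2B and H4 the top gene held 22.2%, 19.6% and 17.9%. The members also varied together within a group: 57 of the 61 tested were higher in empty vector replicate 2 than in replicate 1 (median log2 ratio 0.16), and 51 were lower in SAMD9 replicate 2 than in replicate 1 (median -0.15). Over all genes tested both medians were 0.00, and the medians of the members between replicates were smaller than their median change between groups.

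**Figure D2:**
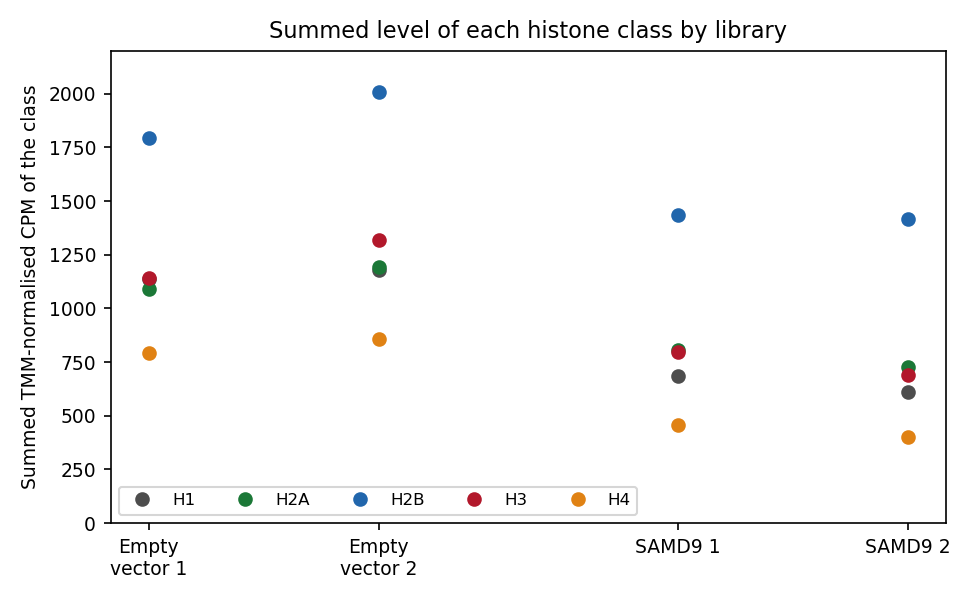
Summed TMM-normalised CPM of all members of each class (y axis) in each of the 4 libraries (x axis). Each point is 1 library, and in each class both SAMD9 points lie below both empty vector points, with H2B the highest throughout.

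The make-up of the histone reads was also different between the libraries of the 2 groups. H2B supplied 30.1% and 30.7% of all member reads with empty vector and 34.4% and 36.9% with SAMD9. H4 supplied 13.3% and 13.1% with empty vector and 10.9% and 10.4% with SAMD9. H1 supplied 19.1% and 18.0% with empty vector and 16.3% and 15.9% with SAMD9. H2A supplied 18.3% and 18.2% against 19.3% and 18.9%, and H3 supplied 19.16% and 20.09% against 19.11% and 17.92%. Reads depend on transcript length, so these shares are not shares of molecules. Together the members took 0.635% and 0.698% of all counts in the empty vector group, against 0.393% and 0.358% in the SAMD9 group.

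Among the linker histones, which bind the DNA entering and leaving the nucleosome, the 3 abundant genes fell and the other 3 were close to silent. H1-3 was at 249.1 and 278.7 CPM with empty vector and 119.2 and 106.0 CPM with SAMD9, giving a log2 change of -1.23 (SE 0.07, edgeR adjusted p = 3.4e-12). H1-2 was at 436.5 and 454.6 CPM with empty vector and 258.6 and 221.2 CPM with SAMD9, giving a log2 change of -0.89 (SE 0.07, edgeR adjusted p = 3.2e-10). H1-4 was at 450.0 and 444.2 CPM with empty vector and 304.8 and 283.9 CPM with SAMD9, giving a log2 change of -0.60 (SE 0.06, edgeR adjusted p = 2.3e-08). The groups were well apart in all 3, and H1-3 kept the smallest share of its empty vector level. These 3 genes encode the somatic linker histones H1.3, H1.2 and H1.4, whose products are distinct proteins, unlike those of most H3 and H4 genes.

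H1-6, the testis-specific linker histone gene, was counted 41 and 14 times in the empty vector libraries and 13 and 3 times in those with SAMD9. Its log2 fold change was -1.86 (SE 0.73, edgeR adjusted p = 0.065), and the empty vector libraries differed from each other by more than the nearest libraries of the 2 groups did. Without empty vector replicate 2 it was called (edgeR adjusted p = 0.013), as it was without SAMD9 replicate 1 (edgeR adjusted p = 0.026), under total-count scaling (0.031) and with no filter (0.032). Its log2 fold change was -0.84 without empty vector replicate 1 (edgeR adjusted p = 0.70) and -1.29 without SAMD9 replicate 2 (edgeR adjusted p = 0.31). H1-1 had between 0 and 9 counts and H1-5 between 0 and 4, too few to test.

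Of 14 tested H2A genes, 8 were called lower and 1 higher, against 12.2% lower and 15.3% higher over all genes. The class median log2 fold change was -0.68. H2AC4 had the largest change, from 73.3 and 82.7 to 40.2 and 36.9 CPM (log2 fold change -1.02, SE 0.08, edgeR adjusted p = 1.8e-09). H2AC12 went from 98.6 and 114.1 to 58.9 and 52.8 CPM (-0.93, SE 0.08, edgeR adjusted p = 4.7e-09), and H2AC13 from 129.0 and 137.7 to 73.7 and 67.9 CPM (-0.91, SE 0.07, edgeR adjusted p = 6.4e-10). The 4 values of each gene separated the groups. H2AC11, the H2A gene with the most reads, went from 238 and 268 to 164 and 143 CPM (-0.72, SE 0.07, edgeR adjusted p = 4.9e-08). H2AC6 went from 146 and 159 to 110 and 101 CPM (-0.53, SE 0.07, edgeR adjusted p = 2.8e-06). H2AC14, H2AC16 and H2AC21 were also called lower, with log2 fold changes between -0.52 and -0.74, and the call of H2AC16 was lost without SAMD9 replicate 2. Of the 31-base stretches of H2AC13 and H2AC14, 63.9% and 86.0% occur in other genes, so their share of reads is less certain.

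H2AC20 stood apart from these abundant H2A genes, though 50.6% of its 31-base stretches occur in other genes, so its share of reads is less certain. It was at 177.6 and 185.1 CPM with empty vector and 166.2 and 160.8 CPM with SAMD9 (log2 fold change -0.15, SE 0.06, edgeR adjusted p = 0.079), so it was not called although the groups did not overlap. It was called lower without empty vector replicate 1 (edgeR adjusted p = 0.027) and under total-count scaling. H2AC18 was the only member called higher, at 7.32 and 10.01 CPM with empty vector and 12.2 and 12.1 CPM with SAMD9 (log2 fold change 0.49, SE 0.16, edgeR adjusted p = 0.023). Its call was lost without empty vector replicate 1 (edgeR adjusted p = 0.26), without SAMD9 replicate 1 (edgeR adjusted p = 0.064), under total-count scaling (edgeR adjusted p = 0.14) and with DESeq2 (adjusted p = 0.11). All of its 31-base stretches also occur in other genes, chiefly in its near-copy H2AC19, which encodes the same protein, so the division of reads between them is uncertain, and 12.02% of its exonic bases overlap listed exons of H2BC21. H2AC19 was at 21.3 and 23.6 against 26.6 and 22.8 CPM, and the pair summed to 28.6 and 33.6 against 38.8 and 34.9 CPM. H2AC25 was at 28.3 and 31.5 against 33.5 and 32.7 CPM, and the low-count H2AC7 and H2AC8 had log2 fold changes of -0.87 (SE 0.38) and -1.02 (SE 0.64) without a call. Other genes hold 98.1% of the 31-base stretches of H2AC7, so its reads are uncertain, against 1.46% for H2AC8.

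Of 17 tested H2B genes, 10 were called lower and none higher, against 12.2% lower and 15.3% higher over all genes. The class median was -0.64. H2BC3 went from 36.4 and 42.2 to 20.9 and 21.9 CPM (log2 fold change -0.88, SE 0.10, edgeR adjusted p = 4.6e-07). H2BC5 went from 192.8 and 225.4 to 121.9 and 109.9 CPM (-0.85, SE 0.07, edgeR adjusted p = 5.2e-09). Both fell clear of the spread between replicates. H2BC18, with the most reads of the class, went from 358.6 and 387.3 to 279.4 and 257.2 CPM (-0.47, SE 0.06, edgeR adjusted p = 2.5e-06). H2BC12 went from 194.1 and 205.3 to 163.7 and 156.2 CPM (-0.32, SE 0.06, edgeR adjusted p = 0.00042), and 86.3% of its 31-base stretches occur in other genes. The remaining genes called lower were H2BC4, H2BC6, H2BC10, H2BC13, H2BC14 and H2BC15, with log2 fold changes between -0.37 and -0.81.

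A group of well-counted H2B genes was not called. H2BC21, the second by reads, was at 206.4 and 238.2 CPM with empty vector and 224.5 and 227.1 CPM with SAMD9 (log2 fold change 0.02, SE 0.07, edgeR adjusted p = 0.85), and the groups overlapped. H2BC17 was at 114.9 and 134.5 against 123.1 and 129.0 CPM (0.01, SE 0.07), H2BC26 at 32.4 and 34.9 against 30.9 and 36.5 CPM (-0.00, SE 0.10), and H2BC11 at 80.4 and 100.4 against 80.3 and 86.6 CPM (-0.12, SE 0.09). H2BC11 was called lower under total-count scaling (log2 fold change -0.31, edgeR adjusted p = 0.0065) and without empty vector replicate 1. The SE of each of these 4 genes was no larger than that of H2BC3, which was called. H2BC17, H2BC26 and H2BC11 are named because their values stood apart once seen. The low-count H2BC7, H2BC8 and H2BC9 had log2 fold changes between -1.07 and -1.30 with SEs from 0.51 to 0.69, and were not called.

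Of 13 H3 genes, all tested, 9 were called lower and none higher, against 12.2% lower and 15.3% higher over all genes. The class median was -0.69. H3C2 had the highest level per kilobase of listed length among all members, 1094 CPM per kilobase with empty vector. It went from 428.2 and 471.0 to 243.1 and 196.7 CPM (log2 fold change -1.03, SE 0.08, edgeR adjusted p = 2.9e-10). H3C1 went from 56.9 and 68.9 to 33.8 and 27.1 CPM (-1.04, SE 0.10, edgeR adjusted p = 5.1e-08). These were the steepest falls of the class. H3C13 went from 127.9 and 161.7 to 93.0 and 79.4 CPM (-0.75, SE 0.09, edgeR adjusted p = 9.4e-07), and 86.4% of its 31-base stretches occur in other genes. H3C3 and H3C10 had smaller log2 fold changes: H3C3 went from 113.4 and 119.9 to 92.4 and 84.3 CPM (-0.40, SE 0.07, edgeR adjusted p = 0.00013), and H3C10 from 142.5 and 168.4 to 125.3 and 114.4 CPM (-0.37, SE 0.08, edgeR adjusted p = 0.00061). H3C6, H3C7, H3C11 and H3C12 were called lower with log2 fold changes between -0.66 and -0.77, and H3C6 was not called without SAMD9 replicate 2.

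H3 genes encode 2 proteins, H3.1 from 10 genes and H3.2 from H3C13, H3C14 and H3C15, which are 99.3% identical in amino acids. H3.1 genes summed to 962.8 and 1094 CPM with empty vector and 654.1 and 566.0 CPM with SAMD9, 59.3% of the empty vector mean. H3.2 genes summed to 177.4 and 222.2 against 145.1 and 122.9 CPM, 67.1%. Both proteins' mRNAs were thus lower, and the difference between them was not tested. H3C14 and H3C15, near-copies whose 31-base stretches all occur in other genes, had log2 fold changes of -0.19 (SE 0.10) and -0.27 (SE 0.17) and were not called, nor were the low-count H3C4 and H3C8. Other genes also hold all 31-base stretches of H3C4, so its reads are uncertain, against 0.42% for H3C8. Under total-count scaling H3C14 and H3C15 were called lower, as was H3C14 without empty vector replicate 1.

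Of 13 tested H4 genes, 9 were called lower and none higher, against 12.2% lower and 15.3% higher over all genes. The class median was -0.80. H4 differs from the other classes in that 14 of its 15 genes encode the identical protein, so the falls below are all in mRNAs for the same product. H4C13 went from 32.5 and 37.1 to 13.1 and 7.65 CPM (log2 fold change -1.73, SE 0.16, edgeR adjusted p = 1.1e-08). H4C2 went from 69.5 and 92.8 to 35.2 and 28.8 CPM (-1.34, SE 0.11, edgeR adjusted p = 2.3e-09). In H4C13 the SAMD9 libraries also differed from each other, and both lay far below the empty vector libraries. H4C4 went from 113.6 and 125.3 to 55.9 and 46.2 CPM (-1.22, SE 0.08, edgeR adjusted p = 7.7e-11), and H4C3 from 124.8 and 126.4 to 62.6 and 53.0 CPM (-1.12, SE 0.08, edgeR adjusted p = 9.5e-11). H4C8 went from 119.5 and 120.3 to 63.8 and 62.2 CPM (-0.93, SE 0.07, edgeR adjusted p = 2.8e-10), and H4C5 from 148.9 and 146.0 to 86.5 and 70.0 CPM (-0.91, SE 0.08, edgeR adjusted p = 6.0e-09). H4C1, H4C9 and H4C16 were also called lower, with log2 fold changes of -0.80, -0.45 and -0.46, and the call of H4C9 was lost without empty vector replicate 2. H4C11, H4C12, H4C14 and H4C15, none above 15.4 CPM, were not called, and H4C14 was at 12.9 and 13.9 against 15.4 and 11.3 CPM. Of their 31-base stretches, 82.2%, 100%, 98.6% and 97.2% occur in other genes, so their share of reads is uncertain.

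The members were also grouped by genomic cluster, using the files' GRCh38 coordinates with chromosome 6 split at gaps over 500000 bases. In the main chromosome 6 cluster (25726132 to 26285509, 34 members), 21 of 29 tested members were called lower and none higher, with a median of -0.91. The 8 uncalled members there all averaged under 10 CPM. In the second (27125897 to 27147515) 4 of 5 members, and in the third (27807444 to 27893843) 10 of 13 tested members, were called lower, with medians of -0.45 and -0.52. In the larger chromosome 1 cluster (149782689 to 149887916), 3 of 11 members were called lower, H2AC21, H2BC18 and H3C13. H2AC18 was called higher there, and the median of the cluster was -0.19. The shares over all genes were 12.2% called lower and 15.3% called higher. Neither member of the smaller chromosome 1 cluster (228456979 to 228460470), H2AC25 and H2BC26, was called. H4C16, alone on chromosome 12 (14767999 to 14771131), fell by 0.46 on the log2 scale. Without empty vector replicate 1, 5 members of the larger chromosome 1 cluster were called lower. The difference between clusters was not tested, and 6 members of the larger chromosome 1 cluster, in near-copy pairs, share nearly all their sequence.

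**Figure D3:**
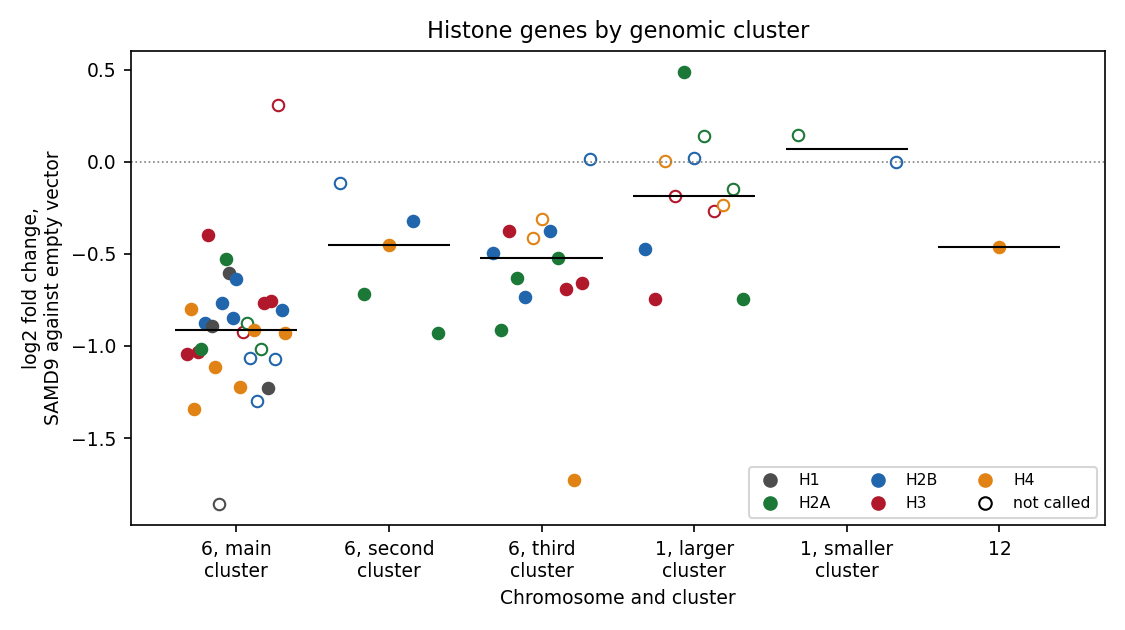
Log2 fold change (y axis, SAMD9 against empty vector) of the 61 tested members by genomic cluster (x axis), in order of position within each cluster. Colours are classes, open points were not called and lines are medians, which run from -0.91 in the main chromosome 6 cluster to -0.19 in the larger chromosome 1 cluster and 0.07 in the smaller.

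Many H2A and H2B genes sit back to back and share the stretch between their starts. By the files' coordinates, 11 such pairs had starts 219 to 382 bases apart, and both members were tested in 9. In H2AC12 and H2BC12 the H2B count was 1.97 and 1.80 times the H2A count with empty vector and 2.78 and 2.96 times with SAMD9. In H2AC11 and H2BC11 the ratio was 0.338 and 0.375 with empty vector and 0.489 and 0.604 with SAMD9. In H2AC13 and H2BC13 it was 0.864 and 0.950 against 1.16 and 1.27. In each of these 3 pairs, and in H2AC20 and H2BC21 (1.16 and 1.29 against 1.35 and 1.41), both SAMD9 libraries held more H2B per H2A than both empty vector libraries. The other 5 pairs did not show this: H2AC6 and H2BC4 had 1.32 and 1.34 against 1.09 and 1.17, and in the remaining 4 the groups' ratios overlapped. Pair partners therefore did not always change by the same amount, and these ratios are given with no test.

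**Figure D4:**
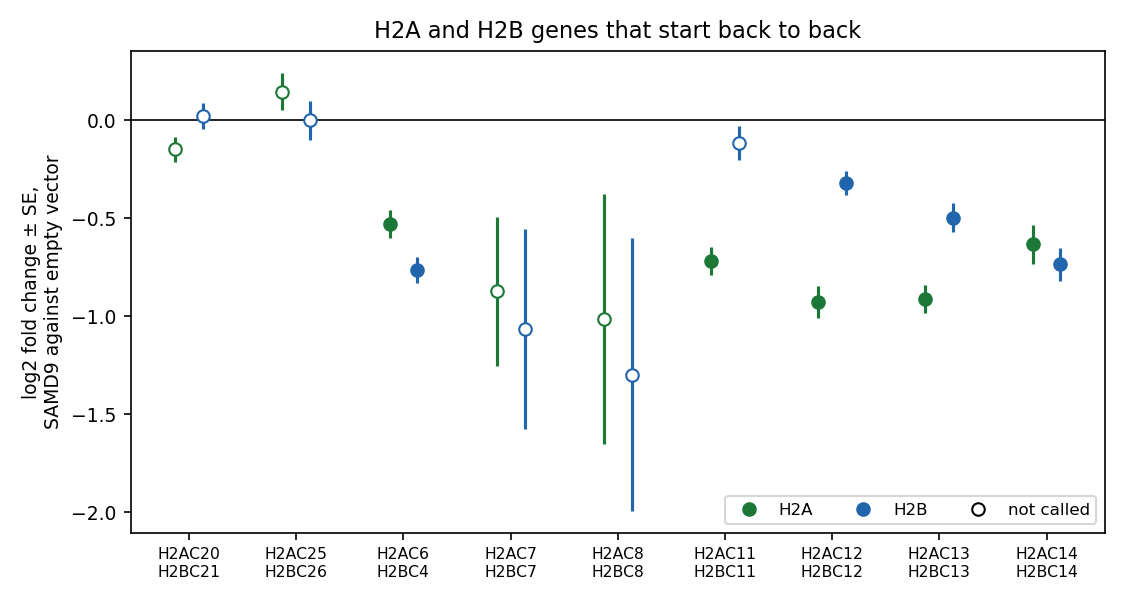
Log2 fold change (y axis, SAMD9 against empty vector, bars 1 SE) of the H2A and the H2B gene in each of 9 back-to-back pairs (x axis). Open points were not called. H2AC11, H2AC12 and H2AC13 lie below their H2B partners, whereas H2AC6 lies above H2BC4.

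The calls were also counted by promoter element, with no test, beside the 12.2% of all genes that were called lower. Of 37 tested members with TATAAA in their window, 25 were called lower, and of 19 without it, 9 were. Of the H2A genes with an octamer in their window, 6 of 9 tested were called lower, and of those without, 1 of 4. In H2B these counts were 7 of 13 and 3 of 4. Where H2A and H2B windows overlap, the same octamer or TATAAA can count for both genes. H2BC4, for example, had TATAAA in its full window but not in the 150 bases upstream of its start. A window with TATAAA is therefore not always that of a gene with its own TATA box. GGTCCG was present in all 11 tested H4 genes with a window, of which 7 were called lower. Of the other 3 tested members with GGTCCG, H3C7 was called lower, and H2AC20 and H2BC21, whose windows overlap, were not. A motif match is a description of letters in this window and not a bound site.

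Of 21 genes that transcribe, process or degrade histone mRNA (below, processing and transcription genes), 5 were called higher and 1 lower. Their median log2 fold change was 0.00, and over all genes 15.3% were called higher and 12.2% lower. XRN1, a 5′ to 3′ exonuclease of decapped mRNA, went from 44.2 and 37.3 to 150.4 and 160.6 CPM (1.93, SE 0.08, edgeR adjusted p = 7.1e-15). ERI1, an exonuclease that trims and degrades the histone mRNA end, went from 38.6 and 41.7 to 51.5 and 53.5 CPM (0.39, SE 0.08, edgeR adjusted p = 0.0012). Of these exonuclease mRNAs, XRN1 was also called higher under total-count scaling and ERI1 was not. CPSF2, a subunit of the cleavage complex, went from 140.6 and 139.7 to 111.9 and 115.0 CPM (-0.31, SE 0.06, edgeR adjusted p = 0.00088). SLBP, named for its role, went from 51.6 and 60.6 to 70.6 and 72.0 CPM (0.34, SE 0.08, edgeR adjusted p = 0.0028), and CASP8AP2 and SYMPK were also called higher. Without SAMD9 replicate 2, 3 genes of this list were called higher, and without empty vector replicate 2, 2 were called lower. NPAT, the coactivator of histone gene transcription, was at 21.9 and 21.1 against 20.2 and 23.3 CPM.

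The list of replication-independent histone variants was mixed. It includes H2AX, which also makes a stem-loop mRNA. Of 11, 1 was called higher and 3 lower, with a median of -0.13, beside 15.3% called higher and 12.2% lower over all genes. H3-3B, which encodes the variant H3.3, went from 342.5 and 336.1 to 572.2 and 607.6 CPM (0.80, SE 0.06, edgeR adjusted p = 1.2e-10). CENPA, the centromeric H3, went from 42.2 and 49.5 to 31.1 and 27.2 CPM (-0.65, SE 0.10, edgeR adjusted p = 2.1e-05), and H2AX from 229.7 and 269.0 to 205.0 and 198.6 CPM (-0.31, SE 0.07, edgeR adjusted p = 0.00165). H2AZ2 was the third gene called lower (-0.20, SE 0.07), and 6 were called lower without empty vector replicate 1. H3-3B thus rose while the summed H3.1 and H3.2 levels were lower in both SAMD9 libraries. H3-3A, which encodes the same H3.3 protein, was not called, so this rise is stated for H3-3B only. The linker variant H1-10 had a log2 fold change of -0.18 (SE 0.07) and was not called.

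Histone chaperones, which carry histones to and from DNA, had 3 of 17 members called higher and 3 lower, with a median of 0.02, beside the same 15.3% and 12.2% of all genes. HJURP, the CENPA chaperone, went from 106 and 124 to 64.4 and 69.5 CPM (-0.78, SE 0.08, edgeR adjusted p = 4.7e-08). CHAF1B, a subunit of the replication-coupled H3 and H4 chaperone, went from 30.6 and 32.1 to 44.9 and 50.7 CPM (0.61, SE 0.09, edgeR adjusted p = 1.7e-05). UBN1, of the H3.3 chaperone complex, went from 161 and 160 to 126 and 117 CPM (-0.40, SE 0.07, edgeR adjusted p = 5.3e-05), whereas HIRA of the same complex and the H3.3 chaperone DAXX rose and the H3 and H4 chaperone ASF1A fell. Without empty vector replicate 2, 5 chaperones were called higher.

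Genes of S phase entry and nucleotide supply had 8 of 25 members called higher and 2 lower, with a median of 0.09. Over all genes, 15.3% were called higher and 12.2% lower. PCNA, the replication clamp, went from 224.5 and 251.8 to 319.1 and 330.7 CPM (0.45, SE 0.06, edgeR adjusted p = 7.5e-06). CDK2 went from 26.2 and 30.6 to 41.6 and 41.5 CPM (0.55, SE 0.10, edgeR adjusted p = 0.00012), and CCNA2, its S phase cyclin, from 80.7 and 87.7 to 65.2 and 60.4 CPM (-0.42, SE 0.08, edgeR adjusted p = 0.00015). The list also holds 2 inhibitors of cyclin-dependent kinases, CDKN1A, called higher (0.19, SE 0.06), and CDKN1B, called lower (-0.42, SE 0.09). The number called higher was 5 without empty vector replicate 1, 5 without SAMD9 replicate 1 and 3 without SAMD9 replicate 2.

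**Figure D5:**
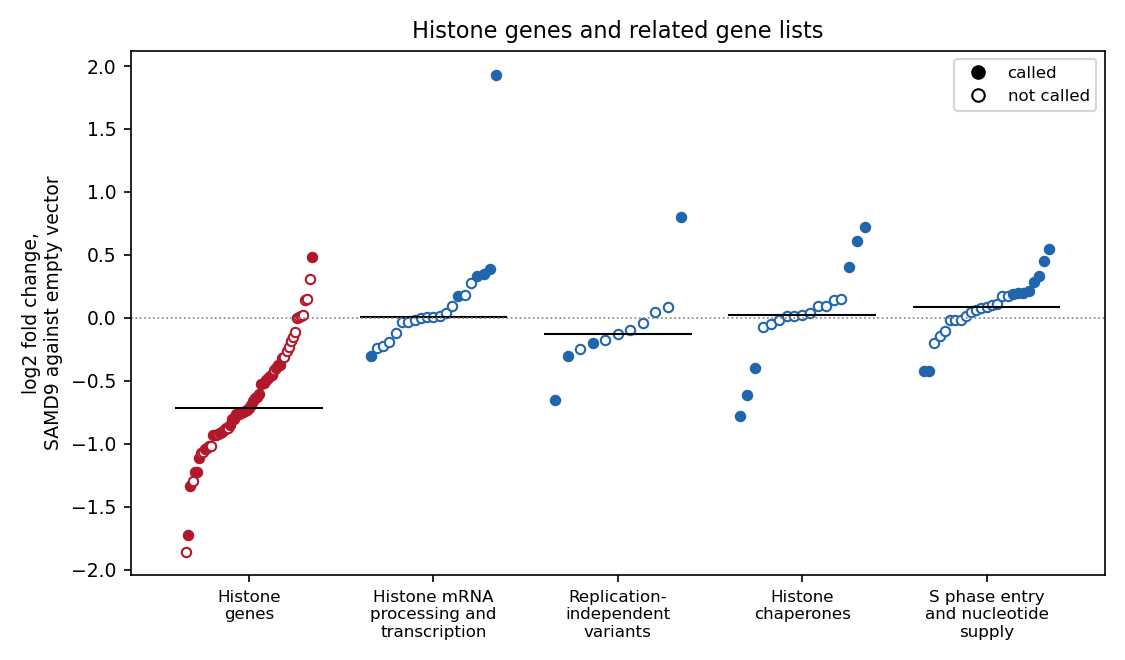
Log2 fold change (y axis, SAMD9 against empty vector) of tested histone genes and of 4 related lists (x axis), each sorted by value. Filled points were called and lines are medians, -0.72 for the histone genes and between -0.13 and 0.09 for the lists.

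The direction of small changes depended on the scaling. With library totals in place of TMM, the median of all genes moved by -0.19 and 28.5% of genes were called lower and 9.96% higher, against the 12.2% and 15.3% above. The histone calls were then 45 lower and 0 higher, and all 39 falls were kept. Of the 7 tested members with a log2 fold change above 0, 2 stayed above 0. Calls in the related lists changed more: processing and transcription genes had 1 higher and 7 lower, variants 1 and 7, chaperones 3 and 7, and S phase genes 2 and 8. ERI1 (0.20, edgeR adjusted p = 0.069), SLBP, CASP8AP2, SYMPK (-0.01) and CDKN1A (-0.00) were not called on that scale, while XRN1, H3-3B, CHAF1B, PCNA and CDK2 were called higher on both scales.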

How the data were processed

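Each deposited file held raw counts per gene for 1 library. The authors also deposited CPM and RPKM values, which equalled those recomputed from the counts and were not tested. The submitters' processing notes name GRCh38, featureCounts 1.4.6-p5 (Subread), STAR 2.5.1a and bcl2fastq. The strand setting, the annotation and the treatment of reads mapping to several genes are unknown here, as they are not given in the sources used. Overlapping or antisense genes therefore cannot be told apart. Among counts from 1 to 20, 72.9% were even, against 49.7% above 1000.

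Symbols came from a gene name table, with 4 members named through RefSeq synonyms. The test was edgeR 4.0.16 (R 4.3.3; filterByExpr, minimum count 10, minimum total 15; TMM; quasi-likelihood F-test; no covariate), and each SE is the size of the log2 change over the square root of its F statistic. With 2 libraries a group, an exact permutation test cannot give a p below 0.333. On simulated counts, with the same spread beyond counting noise set for every gene, the fit recovered most of the changes that were put in. The simulation had no joint shift of members between replicates, so it does not cover that part of the spread. The replicates of a group differed by more than counting noise (chi-square per degree of freedom 9.35 and 5.00).

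The members and lists were chosen with earlier results of these data known. The rule for naming took every H1 gene, in each core class the 4 genes with the most reads and the 2 called genes with the largest change, members called higher, and the 3 genes of lowest p in each list; other genes were named to account for a class, pair or cluster, after their values were seen. Alternatives were total-count scaling, DESeq2 1.42.0, no filter, a replicate block and leaving out each library. The values of 1 gene of the lists are not reported here.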

Additional observations from a re-analysis of the deposited data

How the results depend on the processing

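The 39 falls ranged from 37 to 42 when 1 library was left out and from 39 to 45 under the other alternatives, and all 39 were kept under total-count scaling, DESeq2, no filter and the replicate block. Class counts stayed within 1.5 times under every alternative run. The 1 member called higher became 0 under total-count scaling and with DESeq2, and ranged from 0 to 1 without 1 library. Total-count scaling moved the summed log2 ratios to -1.03 for H1, -0.76 for H2A, -0.60 for H2B, -0.91 for H3 and -1.13 for H4, by its own construction. It raised the calls lower in the larger chromosome 1 cluster to 6 (3 to 5 without 1 library). In the lists it gave 7 lower and 1 higher for processing and transcription (1 to 2 and 3 to 6 without 1 library), 7 lower for variants (2 to 6), 7 lower for chaperones, and 8 lower and 2 higher for S phase genes (2 to 3 and 3 to 9). Chaperones called higher ranged from 3 to 5 without 1 library. H2BC21 turned to -0.17 under total-count scaling and ranged from -0.076 without empty vector replicate 1 to 0.13 without empty vector replicate 2. Of 27 members named by the rule and fitted, 23 kept direction and call under every alternative, and the others were H1-6, H2AC20, H2BC21 and H2AC18. Over all members, H4C9 lost its call without empty vector replicate 2, and H3C6 and H2AC16 without SAMD9 replicate 2. Calls were gained by H3C14, H3C15, H2AC20, H1-6, H2AC7 and H2BC11 under total-count scaling, by H3C14, H2AC20 and H2BC11 without empty vector replicate 1, by H1-6 without empty vector replicate 2 and with no filter, and by H1-6 and H2BC7 without SAMD9 replicate 1.

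The labels do not say whether same-numbered libraries were handled together. Over all tested genes, their deviations from the group means correlated at 0.01, which cannot settle this. With the replicate block, 39 members were called lower and 1 higher, and 7 S phase genes higher in place of 8. Members under 10 CPM had SEs from 0.17 to 0.73, and 1 of 13 tested, H3C6, was called lower.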

Other observations

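The 61 tested members were also described by features of their gene models, chosen after the values were seen and with no test. The share called lower over all genes was 12.2%. Of 35 whose listed length was within 100 bases of the coding length, 25 were called lower (median log2 fold change -0.81), and of 26 whose listed models ran at least 100 bases further, 14 were (median -0.41). Of 13 with at least 80% of their 31-base stretches in other genes, 3 were called lower (median -0.31), and of the other 48, 36 were (median -0.76). These groups also differed in level, with a median of 10.4 CPM in the first and 76.3 CPM in the second. Level, cluster and shared sequence were not separated. By mean level, 16 of 19 members at 100 CPM or more, 22 of 29 from 10 to 100 CPM and 1 of 13 below 10 CPM were called lower. Their medians were -0.60, -0.69 and -0.87.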
